A study of Mus musculus with 43 samples.

Results

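The S100 genes encode small calcium-binding proteins, and 9 of them were followed through the RNA of mouse astrocytes: S100b, S100a1, S100a4, S100a6, S100a10, S100a11, S100a13, S100a16 and S100g. They were matched by gene symbol, and the choice was made with earlier results of these data known. Each had 1 row in each of the 3 deposited tables of 24537 genes. In all, 43 libraries in 9 groups were measured by RNA-seq of poly(A) RNA from stranded libraries, and levels were compared within a table only. The first table held astrocytes from the cortex of mice at postnatal day 7, isolated by immunopanning, in which antibodies on a dish hold the wanted cells, and kept for 12 days in serum-free medium. Its groups were 6 wild-type (WT) libraries, 6 from a Fragile X syndrome model (FXS), 6 from a Rett syndrome model (RTT) and 4 from a Down syndrome model (DS), all under 1 batch label. The labels named neither the alleles nor the strains of these models. The second table held 6 pairs of wild-type cultures of the same kind. In each pair 1 library received the growth factor BMP6 for the last 5 days (BMP6) and 1 did not (Alone), and the pair shared a culture number and a batch label. The third table held 3 libraries each of immunopanned acute astrocytes (IP acute), immunopanned cultured astrocytes (IP cultured) and cultured astrocytes labelled MD (MD cultured), again under 1 batch label. IP acute and IP cultured share the library numbers 2, 4 and 7, and the labels do not say whether these mark pairs. The labels of that table did not spell out MD, gave no age or medium, and did not say whether its libraries came from separate animals, so its p-values measure the spread between these libraries, which may be technical.

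S100 proteins carry a pair of EF-hands, helix-loop-helix sites that bind calcium, and most of them work as dimers. Calcium binding opens a surface that docks onto partner proteins such as annexins, cytoskeletal proteins and p53, and several S100 proteins are also released and act on cell-surface receptors such as RAGE. In brain, S100B protein is a classical astrocyte marker, although oligodendrocyte-lineage cells and ependymal cells also make it. S100A10 (p11) pairs with annexin A2, S100A6 (calcyclin) binds the calcyclin-binding protein, S100A4 binds non-muscle myosin and is also known as fibroblast-specific protein, S100A13 takes part in the non-classical release of FGF1, and S100G (calbindin-D9k) is a calcium buffer of intestine and uterus.

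In the RefSeq annotation of mouse build GRCm38.p6, 7 of the 9 genes lay on chromosome 3. S100a1 (chr3:90511034-90514330), S100a13 (chr3:90514233-90524581), S100a16 (chr3:90537254-90543151), S100a4 (chr3:90603770-90606045) and S100a6 (chr3:90612894-90614414) formed a group of 5 genes within 103 kb. S100a11 (chr3:93520496-93526288) and S100a10 (chr3:93555117-93564645) lay 2906 kb further on. S100b lay at chr10:76253836-76261319 and S100g at chrX:162961992-162964599. Promoter windows of 300 bases, from 250 before to 50 after the annotated start, were given by RefSeq for all members but S100a10. The windows that follow belong to the genes on which the comparisons turned, written 5′ to 3′ on the strand of the gene. The first is shown because S100a1 and S100a13 share it and point away from each other. The start site that RefSeq's promoter window uses for S100a13 (chr3:90514435) lies 105 bases from that of S100a1 (chr3:90514330), and the capitals mark the 104 bases between these 2 start sites. The gene span of S100a13 printed above begins before that site, within S100a1, so the annotated spans overlap.
S100a13 and S100a1, chr3:90514185-90514484, plus strand: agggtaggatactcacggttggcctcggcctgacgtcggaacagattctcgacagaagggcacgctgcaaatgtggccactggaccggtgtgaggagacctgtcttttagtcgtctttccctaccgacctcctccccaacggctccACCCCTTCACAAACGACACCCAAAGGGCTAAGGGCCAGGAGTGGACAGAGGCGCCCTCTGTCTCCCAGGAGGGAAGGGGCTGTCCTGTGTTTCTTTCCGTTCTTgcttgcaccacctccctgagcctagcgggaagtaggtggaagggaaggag
In the next windows the capitals mark a TATA box (TATAAA), an AP-1 element (TGACTCA) or an Sp1 box (GGGCGG), searched on both strands. S100a4 and S100g are shown for their differences between preparations, S100a11 for its rise in culture, and S100b for its level in DS.
S100a4, chr3:90603520-90603819, plus strand: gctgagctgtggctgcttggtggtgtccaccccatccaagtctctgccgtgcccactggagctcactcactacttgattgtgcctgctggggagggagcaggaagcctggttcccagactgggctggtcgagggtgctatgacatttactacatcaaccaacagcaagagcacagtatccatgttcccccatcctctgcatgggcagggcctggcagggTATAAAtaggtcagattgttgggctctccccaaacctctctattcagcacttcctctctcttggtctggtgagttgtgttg
S100a11, chr3:93520246-93520545, plus strand: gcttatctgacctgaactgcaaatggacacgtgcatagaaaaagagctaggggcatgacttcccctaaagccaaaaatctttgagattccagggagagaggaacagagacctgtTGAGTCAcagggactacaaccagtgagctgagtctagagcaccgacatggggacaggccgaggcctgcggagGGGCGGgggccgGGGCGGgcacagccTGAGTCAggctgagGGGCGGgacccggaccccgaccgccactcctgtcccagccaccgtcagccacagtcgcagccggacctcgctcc
S100g, chrX:162964550-162964849, minus strand: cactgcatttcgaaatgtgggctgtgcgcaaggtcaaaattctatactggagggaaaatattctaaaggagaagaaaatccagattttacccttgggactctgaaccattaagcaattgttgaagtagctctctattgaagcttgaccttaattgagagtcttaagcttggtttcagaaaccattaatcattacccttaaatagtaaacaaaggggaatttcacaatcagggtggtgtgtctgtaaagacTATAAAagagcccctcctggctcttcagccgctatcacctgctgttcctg
S100b, chr10:76253586-76253885, plus strand: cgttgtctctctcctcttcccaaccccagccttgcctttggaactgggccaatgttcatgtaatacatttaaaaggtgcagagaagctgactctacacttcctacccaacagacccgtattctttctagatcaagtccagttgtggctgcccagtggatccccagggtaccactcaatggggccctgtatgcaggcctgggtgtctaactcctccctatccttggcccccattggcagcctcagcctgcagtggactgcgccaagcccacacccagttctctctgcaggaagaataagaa
The S100b window held none of these letters, and the S100a11 window held both AP-1 and Sp1 letters. The S100a4 window held a TATA box 31 bases before the start, and in S100g the TATA letters began at the annotated start itself. Of 32851 windows of this length, 13.6% held TATAAA, 5.202% TGACTCA and 35.7% GGGCGG. A further 6-letter motif, GGCGCC, to which the SMAD proteins of the BMP pathway are known to bind, lay within the capitals of the window that S100a13 and S100a1 share, 55 bases before either of these start sites, and 11.9% of all windows held it. Of 16560 start sites on the plus strand, 6.86% had a minus-strand start within 200 bases upstream. These matches describe the letters only.

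The FXS label was checked against its gene. Fmr1, the gene silenced in Fragile X syndrome, read 0.967 to 2.21 FPKM (read counts scaled by transcript length and library depth) in the 6 FXS libraries and 8.93 to 17.1 in the other 16 libraries of that table. No such check is given for the RTT and DS labels. Of 12 astrocyte markers, 11 or 12 had a group median of at least 1 FPKM in each of the 9 groups. Depth, estimated from the steps between low values, ran from 10600000 to 55600000 reads per library. Among the disorder libraries, DS 32, FXS 31 and WT 33 had the highest FPKM totals (401659, 380637 and 377302). DS 32 was also the highest DS library for 8 of the 8 members that reached 1 FPKM, FXS 31 the highest in its group for 7 of 8 and WT 33 for 4 of 8. The S100b differences and the counts of called members are therefore also described without these 3 libraries.

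Within the disorder table, S100a16, S100a1, S100a10, S100a11, S100a6 and S100a13 were abundant, with group means of 67.6 to 191 FPKM. S100b and S100a4 were far lower, with group means of 3.92 to 11.9 and 6.91 to 8.95 FPKM. S100g reached at most 0.234 FPKM and was left out of the test by the filter on low values, as it was in the BMP6 table. The test, here and below, was limma on log2(FPKM + 0.5), fitted over all genes of a table and called at an adjusted p under 0.05, a scale that understates the change of low genes. In bulk RNA, fewer cells of a type and less RNA per cell cannot be told apart.

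S100b was the member that set the DS libraries apart. It read 11.1, 12.2, 13.1 and 11.1 FPKM in DS 19, 21, 32 and 39. It ran from 4.26 to 7.53 FPKM in WT (median 5.52), from 2.03 to 9.14 in FXS (median 3.40) and from 1.85 to 7.34 in RTT (median 3.53). Every DS library lay above every other library of the table. The DS values were also close to each other, with a coefficient of variation of 8.26%, against 23.3% to 50.6% for the other members tested in DS. Against FXS the log2 difference was 1.60 (SE 0.30, adjusted p = 0.00337). Against RTT it was 1.59 (SE 0.30, adjusted p = 0.0035). Both comparisons use the same 4 DS libraries. Against WT, S100b averaged 11.9 ± 0.981 FPKM (SD, n = 4) and 5.83 ± 1.35 (SD, n = 6), a log2 difference of 0.99 (SE 0.30) that missed the threshold (adjusted p = 0.0656). The DS and WT values of S100b did not overlap all the same. It was called against WT under quantile normalization (adjusted p = 0.047) and when only DS and WT entered the fit (adjusted p = 0.00785). Without DS 32, FXS 31 and WT 33, the S100b differences were 1.53 against FXS (adjusted p = 0.0312), 1.54 against RTT (adjusted p = 0.0223) and 1.01 against WT (adjusted p = 0.0925). The order of the group means of S100b was DS, WT, FXS and RTT. The neighbours WT and FXS differed by a log2 value of −0.61 (FXS minus WT, SE 0.27, adjusted p = 0.219, unadjusted p = 0.0364). FXS and RTT differed by 0.00 (RTT minus FXS, SE 0.27, adjusted p = 0.995). Neither difference was called. About 50 to 641 reads lay behind each S100b value in this table, by the estimated depths. The mouse gene lies on chromosome 10, while the human gene lies on the chromosome that is present in an extra copy in Down syndrome, and the labels do not say which mouse segment the DS model carries in excess.

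**Figure D1:**
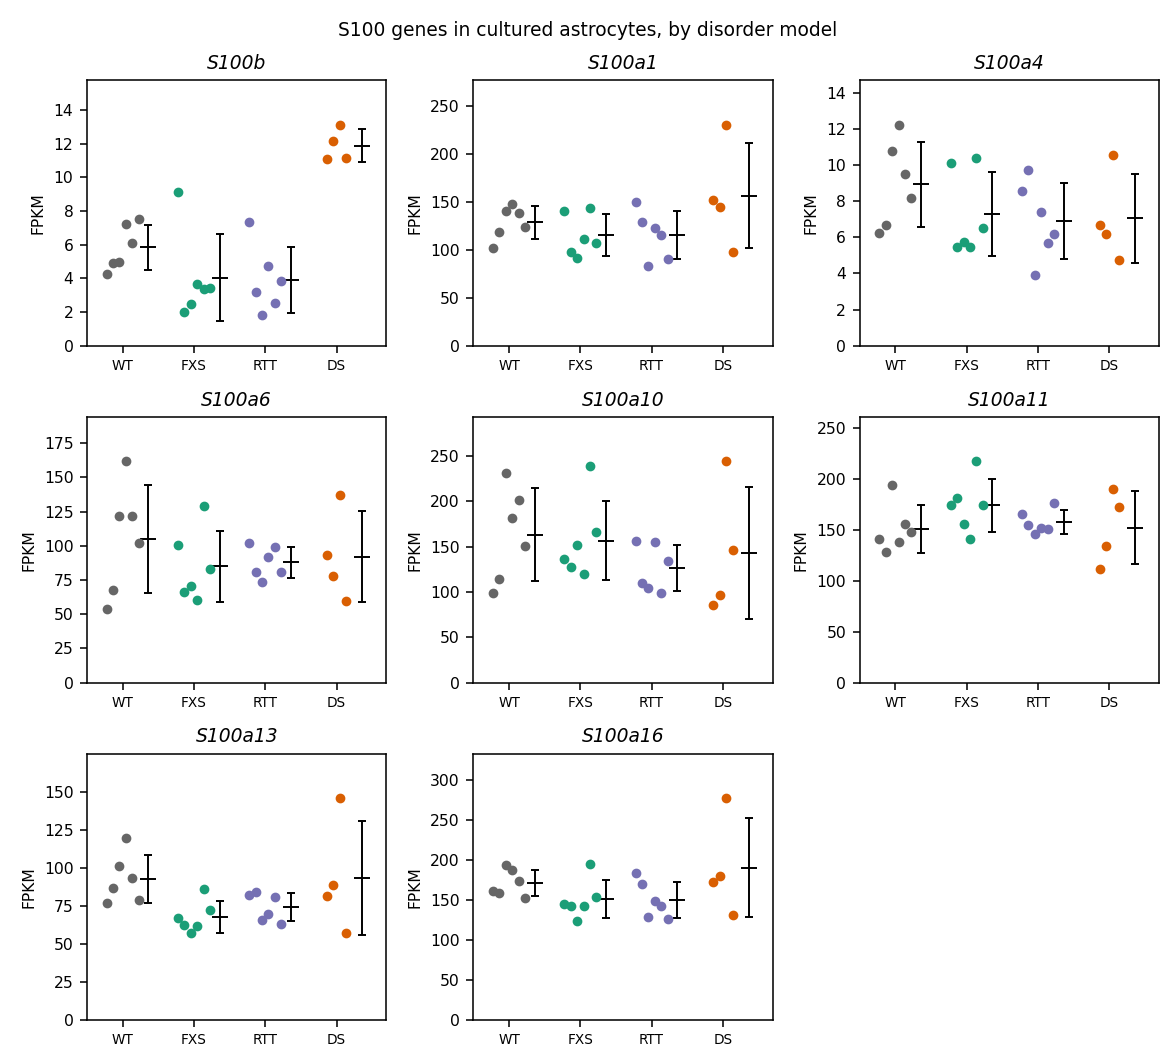
FPKM (linear axis from 0) of 8 S100 genes in each library of the disorder table: points are libraries, and the black bars are group means ± SD (n = 6, 6, 6 and 4). The 4 DS points of S100b, at 11.1 to 13.1, lie above all other points, whereas for the other 7 genes the groups overlap. DS 32 is the highest DS point in all 8 panels, that of S100b included.

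Markers of other cells were read beside S100b, and sums here and below add all listed markers of a type, tested or not. In DS, 7 of 7 tested oligodendrocyte markers had a positive difference against WT, FXS and RTT, with 1 called in each. The summed level of the 9 listed was 128 to 330 FPKM in DS against 119 to 201 in FXS, 151 to 168 in RTT and 116 to 300.2 in WT. The neuronal list had 3 of 6 tested members called higher in DS against WT, and sums of 120 to 162 FPKM in DS against 98.3 to 148 in WT. Of 3 tested endothelial markers 1 was called higher in DS against WT. Sums of the 9 listed were 106 to 260 FPKM in DS, above the 59.95 to 103 of every WT library, against 85.8 to 194 in FXS and 57.2 to 147 in RTT. None of the oligodendrocyte or neuronal markers was at 0 throughout DS. Of 12 ciliated and ependymal markers, 10 had a positive difference in DS against WT, 1 against FXS and 11 against RTT. Their sums were 281 to 556 FPKM in DS, 191 to 570 in WT, 416 to 1408 in FXS and 165 to 816 in RTT. In the same order of comparisons, 4, 7 and 2 of 7 precursor markers were positive. So were 0, 1 and 6 of 7 microglial and 0, 5 and 3 of 11 mural and fibroblast markers. None of these was called. Of the tested markers, 1 oligodendrocyte, 1 neuronal and 1 endothelial marker passed the filter only through the group where each was highest. The same held for 1 ciliated, 1 precursor and 7 microglial markers. Calls of such markers, here and below, follow in part from the filter. The part of these cells in the S100b result was not tested.

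None of the other 7 tested members was called in any of the 6 comparisons among WT, FXS, RTT and DS, by the same test at an adjusted p under 0.05. Of the 8 tested members, 0 were called in FXS against WT, where 0.00782% of all genes (1 gene) were called, and 0 in RTT against WT, also with a background of 0.00782%. The first background rose to 14 genes without WT 22 and to 209 genes with only the 2 groups in the fit, with 0 members called in either case. At an unadjusted p under 0.05, these comparisons had 2 members (S100b and S100a13) beside 19.5% of all genes, and 1 member (S100b) beside 10.5%. In DS against WT, 0 of 8 were called beside 4.35% of all genes. S100b alone had an unadjusted p under 0.05 there, beside 19.8% of all genes. In DS against FXS 1 of 8 was called beside 2.72%, and in DS against RTT 1 of 8 beside 2.74%. In RTT against FXS, 0 of 8 were called beside 0.0235% of all genes (3 genes, and 593 without RTT 40, with 0 members). No member had an unadjusted p under 0.05 there, beside 14% of all genes. The median difference of the members in DS against WT was −0.03, beside −0.07 over all genes tested. S100a13 came nearest to a call in FXS. It ran from 57.0 to 86.0 FPKM in FXS (median 64.4) and from 77.0 to 119 in WT (median 89.7), with a log2 difference of −0.45 (SE 0.16, adjusted p = 0.147) and overlapping groups. S100a1 ran from 98.2 to 231 FPKM in DS (median 149) and from 102 to 148 in WT (median 131), and S100a16 from 132 to 278 in DS (median 177) and from 153 to 194 in WT (median 168). For S100a1, DS 19 and DS 32 lay above the highest WT library and DS 39 below the lowest. For S100a16, DS 32 lay above the highest WT library and DS 39 below the lowest. S100a11 in DS against WT had a log2 difference of −0.00 (SE 0.14, adjusted p = 0.989), and the values of its 4 groups spanned 112 to 217 FPKM.

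Across the 22 disorder libraries, levels of some members moved together, and these values are a description of libraries that differ in depth and total. On the log2 scale, Pearson's r was 0.91 for S100a13 with S100a16 and 0.91 for S100a1 with S100a16, and 0.84 for S100a1 with S100a13, the pair that shares a promoter window. Over the 12 libraries of the BMP6 table the same pairs had r of 0.80, 0.72 and 0.72. S100a10 and S100a11, neighbours on chromosome 3, had r of 0.72 and 0.84 in the 2 tables, while S100a11 with S100a13 had 0.03 and −0.06. The genes with a pattern most like S100a13 were Atraid (r of 0.94, and 0.90 in the BMP6 table), Tmem50a (0.93 and 0.87) and S100a16. Those most like S100b were BC026585 (0.85), Pon3 (0.85) and Tifa (0.83), which had r of 0.06, −0.56 and −0.00 in the BMP6 table. For S100a16 they were Emc7 (0.94), Atraid (0.93) and S100a13, for S100a1 they were S100a16, Surf1 (0.91) and Tmem192 (0.91), and for S100a10 they were Dtymk, Psmg2 and Dpy30 (0.92 each). The 3 genes most like S100a4 were Ntpcr (0.85), Cmc1 (0.84) and Pdlim4 (0.84), whose r with it was negative over the 12 BMP6-table libraries, between −0.27 and −0.12. Alkbh3 (0.80), Egln1 (0.80) and Hsd17b7 (0.79) were most like S100a11.

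Genes of the S100 pathway showed few calls beside S100b in DS. Syt1, a synaptic vesicle calcium sensor that takes part in FGF1 release, ran from 3.59 to 31.1 FPKM in DS (median 8.24), from 0.313 to 0.447 in WT, from 0.424 to 0.764 in FXS and from 0.458 to 0.722 in RTT. It passed the filter on low values through the DS libraries alone, so these levels are a description with no test, and it is also 1 of the 3 neuronal markers called above. Anxa4, an annexin, was higher in DS against RTT (0.55, SE 0.14, adjusted p = 0.0326). No other of the 8 annexins, 19 tested binding partners, 8 tested receptor and release genes and 16 tested other EF-hand genes was called in DS against FXS or RTT. Against WT, Trp53, which encodes the S100 partner p53, was lower in DS (−0.43, SE 0.11, adjusted p = 0.0314), and no further gene of these lists but Syt1 was called. The shares of all genes called in these comparisons are those given above.

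BMP6 raised S100a13 in all 6 cultures. S100a13 read 55.2, 47.2, 46.7, 49.5, 50.2 and 56.0 FPKM in the Alone libraries of cultures NAAC76, NAAC81, NAAC91, NAAC120, NAAC122 and NAAC124. The BMP6 libraries of the same cultures read 65.0, 76.9, 63.8, 84.7, 90.0 and 73.7 FPKM. The lowest BMP6 library lay above the highest Alone library. The means were 75.7 ± 10.4 and 50.8 ± 3.95 FPKM (SD, n = 6 each), a log2 difference of 0.56 (SE 0.09, adjusted p = 0.00346), and within cultures the difference ran from 0.24 to 0.84. The adjusted p was 0.00499 with the culture as a block in the fit.

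S100a4 was also higher with BMP6, at a lower level. It read 6.27, 1.79, 2.08, 2.35, 1.63 and 4.35 FPKM in the Alone libraries, in the same order of cultures, and 11.3, 3.72, 6.53, 9.91, 5.75 and 5.73 with BMP6. Each culture was higher with BMP6, yet the groups overlapped because cultures NAAC76 and NAAC124 were already high without it. The log2 difference was 1.152 (SE 0.32, adjusted p = 0.0317), and within cultures it ran from 0.36 to 1.87. Leaving out 1 library ended the call in 8 of 12 cases: the BMP6 library of NAAC76, NAAC91, NAAC120 or NAAC122, or the Alone library of NAAC81, NAAC91, NAAC120 or NAAC122, with adjusted p-values of 0.0504 to 0.0711. With the culture as a block in the fit the adjusted p was 0.00575. About 21 to 185 reads lay behind each S100a4 value of this table.

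The 2 members called, both higher, were 2 of 8 tested, beside 15.1% of all genes tested. The members' median difference was 0.34, beside −0.08 over all genes. Of all called genes 35.6% were higher with BMP6, a share that moved to 59.6% under scaling by the median of ratios and 54.1% under quantile normalization. Since the labels pair the cultures, the fit with the culture as a block was run as well. It called 4 of 8 members beside 35.5% of all genes. The members it added were S100a16, higher with BMP6 (log2 difference 0.30, SE 0.09, adjusted p = 0.0341, against 0.116 without the block), and S100a10, lower (−0.37, SE 0.10, adjusted p = 0.0247, against 0.445). S100a16 ran from 96.6 to 158 FPKM in Alone (median 119) and from 115 to 169 with BMP6 (median 147), and was higher in 5 of 6 cultures. S100a10 ran from 52.1 to 134 FPKM in Alone (median 76.5) and from 42.1 to 125 with BMP6 (median 61.1), and was lower in 6 of 6 cultures. Cultures NAAC76 and NAAC124 held the highest Alone values of S100a10, at 134 and 132 FPKM, and also the highest sums of ciliated and ependymal markers, at 412 and 483 FPKM against 55.3 to 171 in the other Alone libraries. The part of those cells was not tested.

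S100a1 lies head to head with S100a13, and it was higher with BMP6 in 5 of 6 cultures without passing the test. It ran from 40.9 to 119 FPKM in Alone (median 75.9) and from 80.7 to 137 with BMP6 (median 106), a log2 difference of 0.49 (SE 0.23, adjusted p = 0.166, and 0.0844 with the block). S100b was low throughout, at 0.945 to 3.78 FPKM in Alone and 1.03 to 2.25 with BMP6, with a log2 difference of −0.07 (SE 0.24, adjusted p = 0.884). S100a6 (0.37, SE 0.29, adjusted p = 0.407) and S100a11 (−0.06, SE 0.18, adjusted p = 0.842) did not pass either. With the block, the adjusted p was 0.730 for S100b, 0.301 for S100a6 and 0.523 for S100a11.

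**Figure D2:**
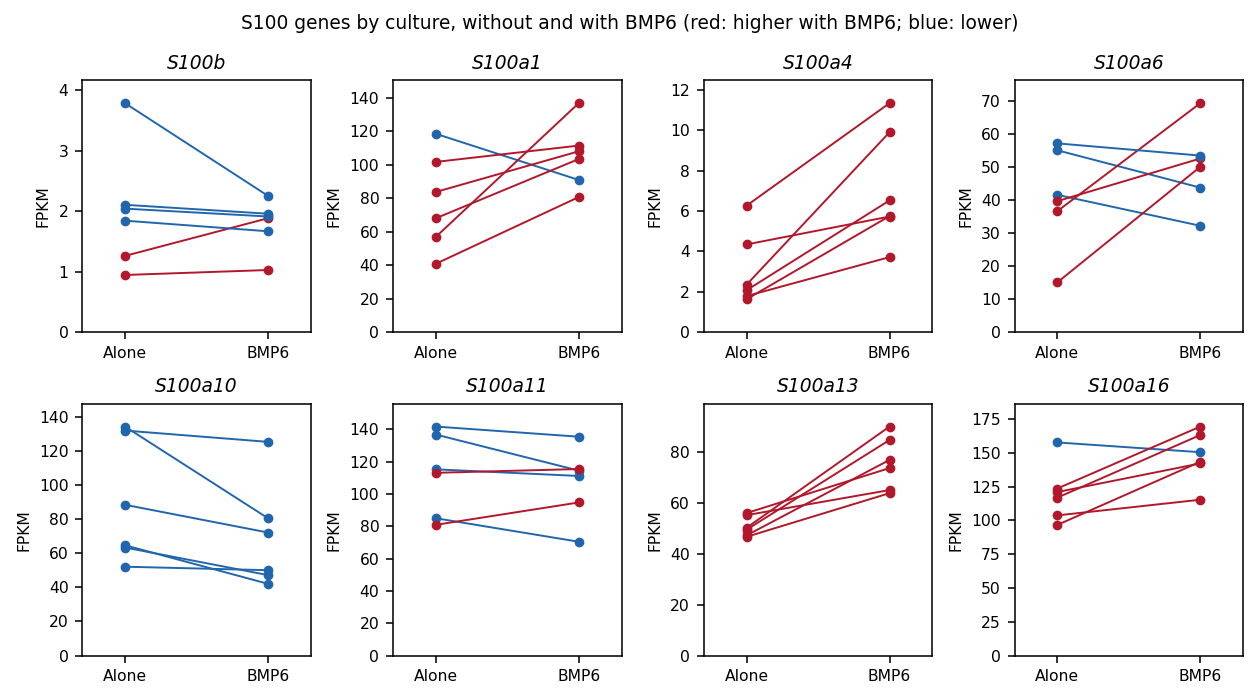
FPKM (linear axis from 0) of 8 S100 genes in 6 wild-type cultures without (Alone) and with BMP6: each line joins the 2 libraries of a culture, red where BMP6 is higher and blue where it is lower. All 6 lines of S100a4 and S100a13 go up, all 6 lines of S100a10 go down, and S100a6 splits 3 to 3.

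Other genes of calcium and S100 signalling held 7 calls with BMP6 in the 4 lists, beside the 15.1% called of all genes, and none of these lists is set apart by its count. Of 19 tested binding partners, 1 was higher and 1 lower: Capzb, an actin-capping subunit (log2 difference 0.28, SE 0.06, adjusted p = 0.014), and Trp53, which encodes p53 (−0.42, SE 0.09, adjusted p = 0.0119). Of 7 tested receptor and release genes, Fgfr1 was higher (0.73, SE 0.14, adjusted p = 0.00706) and Egfr lower (−1.10, SE 0.17, adjusted p = 0.00218). Fgfr1 is a receptor of FGF1. Of 15 tested other EF-hand genes, Rcn2, a calcium-binding protein of the endoplasmic reticulum, was higher, from 131 ± 32.5 to 242 ± 14.7 FPKM (SD, n = 6 each). Sri, which encodes sorcin, was higher too (0.24, SE 0.07, adjusted p = 0.0386), and Ncald, a neuronal calcium sensor, was lower, from 101 ± 42.4 to 36.1 ± 9.71 FPKM (SD, n = 6 each). None of the 8 annexins was called. Astrocyte marker sums were 2316 to 4166 FPKM with BMP6 and 1278 to 3054 without, with 2 of 11 tested markers called higher. Neuronal sums were 94.8 to 124.4 FPKM with BMP6 and 117 to 149.5 without, with 2 of 5 tested markers called lower. Of 4 tested oligodendrocyte precursor markers none had a positive difference and 1 was called lower, with sums of 364 to 979 FPKM against 443 to 1377. Among the tested markers, 1 neuronal and 1 precursor marker passed the filter only through the group where each was highest. No microglial marker passed the filter on low values, and their sums were at most 11.4 FPKM. The part of cell makeup in the S100 results was not tested.

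Between preparations the S100 genes differed more, in a table where many genes did. In acutely isolated astrocytes S100a16 and S100a1 were the highest members, at 445 ± 78.8 and 331 ± 129 FPKM (SD, n = 3 each), and S100g was listed at 0. In IP cultured astrocytes S100a16 was again the highest, at 317 ± 73.4 FPKM. In MD cultured astrocytes S100a6 (811 ± 131) and S100a11 (497 ± 63.6) stood above S100a1 (423 ± 53.2) and S100a16 (281 ± 29.6). Over all genes the median difference was −0.04 for IP cultured against IP acute, −0.16 for MD cultured against IP cultured and −0.24 for MD cultured against IP acute. Scaling by the median of ratios moved the last 2 to 0.00 and −0.02, and quantile normalization moved the first to 0.17 and the last to 0.07, so changes are read relative to these shifts.

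S100g was listed at 0 in all 6 immunopanned libraries and passed the filter through MD cultured alone, so it is left out of the counts and medians of this table. Of the other 8 members, 2 were higher and 2 lower in IP cultured against IP acute, beside 43.3% of all genes called. Their median difference was −0.55. S100a10, the partner of annexin A2, read 51.9, 46.2 and 29.4 FPKM in IP acute 2, 4 and 7 and 82.5, 182 and 87.1 in IP cultured 2, 4 and 7. The groups did not overlap, and the log2 difference was 1.39 (SE 0.32, adjusted p = 0.00763). S100a11 read 55.9, 24.5 and 40.1 FPKM in IP acute and 94.4, 194 and 85.0 in IP cultured, also without overlap, with a log2 difference of 1.60 (SE 0.36, adjusted p = 0.00753). With the shared library numbers as a block in the fit, S100a11 was not called (adjusted p = 0.0656).

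S100a4 fell in culture. It read 51.5, 26.7 and 34.7 FPKM in IP acute and 7.58, 12.7 and 11.7 in IP cultured, without overlap (log2 difference −1.75, SE 0.29, adjusted p = 0.00155). S100a1 read 476, 230 and 288 FPKM in IP acute and 125, 261 and 138 in IP cultured. Those groups overlapped, and its call (−0.93, SE 0.33, adjusted p = 0.0479) was lost under 9 of 16 alternatives. Among them were leaving out IP acute 2 (−0.64, adjusted p = 0.149), IP acute 7 (adjusted p = 0.0857), IP cultured 2 (adjusted p = 0.147) or IP cultured 7 (adjusted p = 0.141). S100b read 99.8, 23.8 and 33.97 FPKM in IP acute and 20.8, 30.1 and 15.8 in IP cultured. These overlapped and were not called (−0.99, SE 0.49, adjusted p = 0.136), except without IP acute 4 (−1.42, adjusted p = 0.0498). S100a6 was not called (−0.38, SE 0.33, adjusted p = 0.391), but was lower without IP cultured 4 (−0.77, adjusted p = 0.0176). S100a13 (−0.60, adjusted p = 0.064) was likewise called without IP acute 4 (−0.80, adjusted p = 0.0244), and S100a16 (−0.50, adjusted p = 0.075) under quantile normalization (adjusted p = 0.041).

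Single libraries weighed on these values. IP acute 2 was the highest acute library for all 8 members detected there, and it also had the highest sums in its group of microglial (1601 FPKM against 150 and 499), endothelial (1413 against 734 and 950) and mural and fibroblast markers (2275 against 779 and 1233). IP acute 4 was the lowest acute library for 7 of the 8, with a neuronal marker sum of 2233 FPKM against 759 and 641. IP cultured 4 was the highest cultured library for 6 of 8 members, and had a mural and fibroblast sum of 2763 FPKM against 600.4 and 803. Across the comparison, 9 of 9 endothelial markers were lower in IP cultured, and Cldn5, a tight-junction gene that defines endothelial cells, read 399 to 677 FPKM in IP acute and 0 to 0.033 in IP cultured. Neuronal markers were lower too, 9 of 10 of them, with sums of 201 to 231 FPKM in IP cultured against 641 to 2233. Of 12 astrocyte markers, 7 were lower and 1 higher (sums of 4215 to 7844 FPKM against 6846 to 10073). Of 7 oligodendrocyte precursor markers, 5 were lower and 1 higher. Their sums, however, had a median of 2851 FPKM in IP cultured (1221 to 2908) against 1397 in IP acute (1286 to 1739). Of the 9 endothelial markers 5, and of the 10 neuronal markers 4, passed the filter through IP acute alone. In turn 8 of 9 oligodendrocyte markers were higher in IP cultured, with sums of 661 to 1411 FPKM against 183 to 439. Of these 9 markers, 3 passed the filter only through the group where each was highest. The part of these cells in the S100 results was not tested.

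MD cultured astrocytes had more S100 RNA than IP cultured astrocytes for 5 of the 8 members other than S100g, with none called lower, beside 45.8% of all genes called. Of those called genes 35.9% were higher, 50.5% under scaling by the median of ratios. The median difference of the 8 was 1.12, beside −0.16 over all genes. S100a4 read 233, 144 and 171 FPKM in MD cultured 1, 2 and 3, and its log2 difference was 4.04 (SE 0.29, adjusted p = 7.54e-05). S100a6 read 945, 804 and 684 FPKM in MD cultured and 53.6, 113 and 45.4 in IP cultured, a log2 difference of 3.62 (SE 0.33, adjusted p = 0.000166). S100a11 read 477, 568.3 and 446 FPKM in MD cultured (log2 difference 2.09, SE 0.36, adjusted p = 0.00226). In each of these genes the lowest MD library lay above the highest IP cultured library. The share of all genes whose groups lay apart, in this and the other comparisons, is not given here.

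The 2 genes that start head to head were both higher in MD cultured than in IP cultured. S100a1 read 445, 362 and 462 FPKM in MD cultured, with a log2 difference of 1.34 (SE 0.33, adjusted p = 0.0106). S100a13 read 152, 144 and 186 FPKM in MD cultured and 92.2, 88.1 and 77.99 in IP cultured (0.89, SE 0.23, adjusted p = 0.013). Both pairs of groups were apart. S100g, the calcium buffer, read 4.90, 4.99 and 5.00 FPKM in the 3 MD libraries. It was listed at 0 in all 6 immunopanned libraries, so no fold and no test of the limma fit are given. S100a10 read 200, 220 and 180 FPKM in MD cultured and overlapped with IP cultured (0.86, SE 0.32, adjusted p = 0.0527). It was called under scaling by the median of ratios (1.04, adjusted p = 0.0301) and without IP cultured 4 (1.23, adjusted p = 0.00229). S100b (−0.62, SE 0.49, adjusted p = 0.335) and S100a16 (−0.15, SE 0.20, adjusted p = 0.562) were not called.

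**Figure D3:**
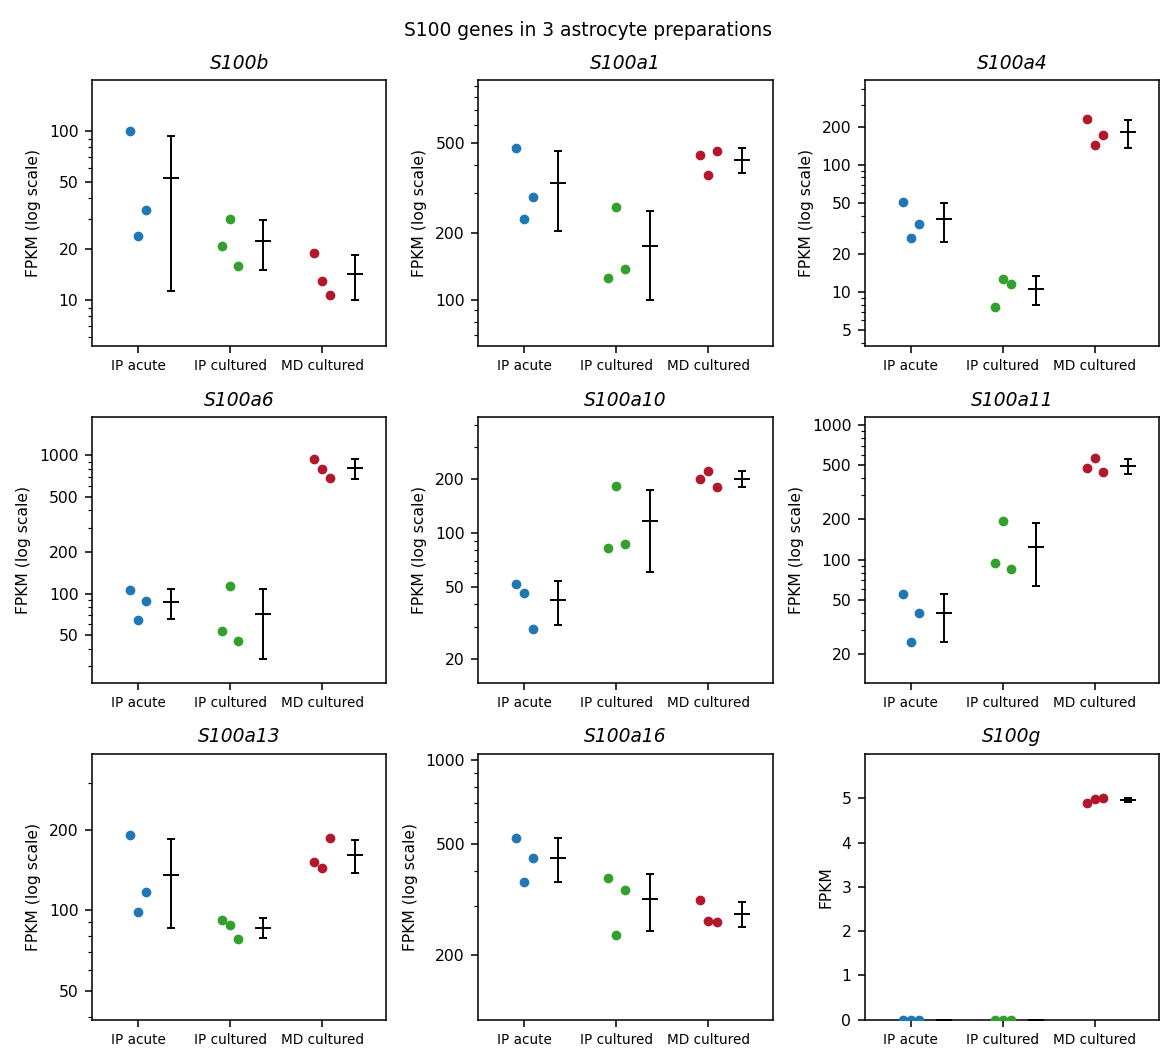
FPKM of the 9 S100 genes in the 3 preparations, on log axes except for S100g (linear from 0): points are libraries, and the black bars are group means ± SD (n = 3 each). S100a4, S100a6 and S100a11 stand far above the other groups in MD cultured, and S100g is above 0 there only.

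Against IP acute, which shares the MD libraries with the comparison before it, 4 of the same 8 members were higher in MD cultured and 2 lower, beside 60.1% of all genes called. Their median difference was 1.33, beside −0.24 over all genes. S100a11 had the largest of the positive differences (3.68, SE 0.36, adjusted p = 6.33e-05), followed by S100a6 (3.24, SE 0.33, adjusted p = 8e-05), S100a4 (2.29, SE 0.29, adjusted p = 0.000221) and S100a10 (2.25, SE 0.32, adjusted p = 0.000401). All 4 were called under each of 15 alternatives. The 2 lower members were S100b and S100a16. S100b read 19.04, 12.96 and 10.7 FPKM in MD cultured, below each acute library (−1.61, SE 0.49, adjusted p = 0.02), and was not called without MD cultured 2 (adjusted p = 0.0554) or 3 (adjusted p = 0.0677). S100a16 read 315, 264 and 263 FPKM in MD cultured and 524, 366 and 445 in IP acute (−0.65, SE 0.20, adjusted p = 0.0209). Its call was lost under scaling by the median of ratios (−0.42, adjusted p = 0.111) and without IP acute 2 or 7 or MD cultured 2 or 3 (adjusted p of 0.0567 to 0.0718). S100a1 (0.41, SE 0.33, adjusted p = 0.308) and S100a13 (0.30, SE 0.23, adjusted p = 0.293) were not called, although S100a13 was higher without IP acute 2 (0.57, adjusted p = 0.0134).

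The authors' deposited table gave its own comparisons of these preparations. For S100b the authors' deposited table listed a log2 fold change of −1.17 for IP cultured against IP acute (adjusted p = 0.0986) and −1.66 for MD cultured against IP acute (adjusted p = 0.00415). For S100a1 the authors' deposited table listed −0.84 in IP cultured against IP acute (adjusted p = 0.109), where the limma fit called the gene. For S100a10 in MD cultured against IP cultured the authors' deposited table listed 0.94 (adjusted p = 0.0295), where the limma fit did not call it. The authors' deposited table held no fold change for S100g between the 2 immunopanned groups. For S100g in MD cultured the authors' deposited table listed 8.36 against IP acute (adjusted p = 1.96e-10) and 8.22 against IP cultured (adjusted p = 9.99e-10). Both of those groups were listed at 0 FPKM.

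**Figure D4:**
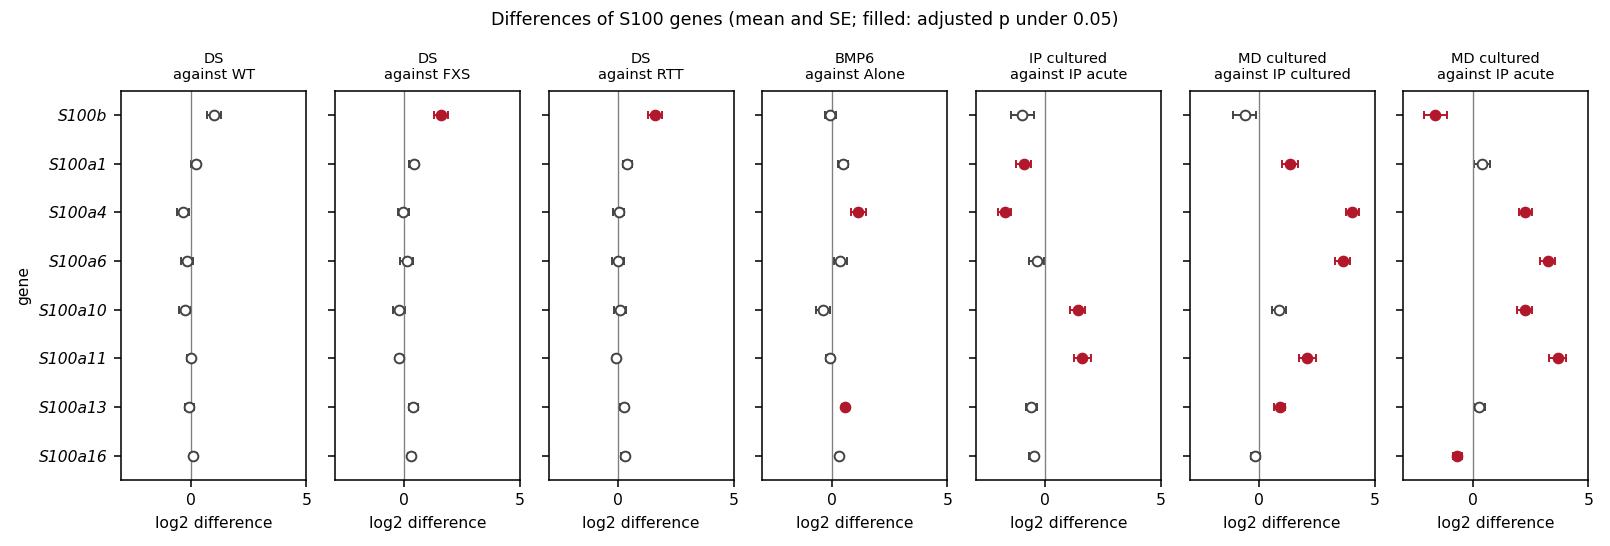
Log2 differences (horizontal axis, log2(FPKM + 0.5) scale) of 8 S100 genes in 7 comparisons: points are estimates, bars are ± 1 SE, and filled red points passed an adjusted p of 0.05. The only filled points among the DS panels are those of S100b against FXS and RTT, whereas S100a4, S100a6 and S100a11 lie at 2.09 to 4.04 in both MD panels.

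Annexins, the best known S100 partners, had all of their calls on the positive side in these comparisons, where 43.3%, 45.8% and 60.1% of all genes were called. Of 8 annexins, 3 were higher and 0 lower in IP cultured against IP acute, 5 and 0 in MD cultured against IP cultured, and 8 and 0 in MD cultured against IP acute. Anxa2, the partner of S100A10, averaged 103 ± 22.6 FPKM in IP acute, 163 ± 48.8 in IP cultured and 382 ± 36.3 in MD cultured (SD, n = 3 each), with a log2 difference of 1.91 (SE 0.25, adjusted p = 0.000289) between the first and the last. Anxa1, a partner of S100A11, averaged 3.11 ± 1.60, 36.3 ± 37.6 and 124.3 ± 63.1 FPKM in the same order. It was higher in IP cultured (2.92, SE 0.73, adjusted p = 0.0117) and in MD cultured (5.04, SE 0.73, adjusted p = 0.000467) than in IP acute. Anxa5 and Anxa4 were higher in both MD comparisons, with log2 differences of 1.2995 to 2.39, Anxa11 in MD cultured against IP cultured (2.40, SE 0.40, adjusted p = 0.0018), and Anxa5 and Anxa6 in IP cultured against IP acute (1.09 and 0.44).

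The binding partners, receptors and other EF-hand genes were split, and their counts are to be read beside the same 43.3%, 45.8% and 60.1% of all genes. Of 20 binding partners, 5 were higher and 3 lower in IP cultured against IP acute, and 7 were higher and 5 lower in each MD comparison, so these counts do not set the list apart. Among the genes of these lists, Kcnk3, Ager, Il1a, Syt1, Calb1, Calb2 and Hpca reached the filter only through the group where each was highest, and their levels are given with no test. The list counts still include these genes, Kcnk3 among the binding partners, and a call of such a gene follows in part from the filter. Vim, which encodes the filament protein vimentin, averaged 449 ± 70.4 FPKM in IP acute, 2060 ± 643 in IP cultured and 6787 ± 634 in MD cultured (SD, n = 3 each). Atp2a2, the calcium pump of the endoplasmic reticulum, was lower in both cultures than in IP acute (−0.99 in IP cultured and −1.35 in MD cultured). Kcnk3, a potassium channel that S100A10 helps to carry to the membrane, averaged 1.995 ± 0.495 FPKM in IP acute, 0.548 ± 0.130 in IP cultured and 0.123 ± 0.093 in MD cultured (SD, n = 3 each). Marcks, an actin-binding substrate of protein kinase C, was lower in MD cultured than in either immunopanned group (−2.48 and −2.83), while Mdm2 and Hltf were higher than in IP cultured (1.13 and 0.94), and Trp53 was higher in IP cultured than in IP acute (0.65).

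Of 10 tested receptor and release genes, 1 was higher and 4 lower in IP cultured against IP acute, 3 and 2 in MD cultured against IP cultured, and 4 and 5 in MD cultured against IP acute. The 10 include Ager, Il1a and Syt1, the 3 that reached the filter only through their highest group. Ager, which encodes RAGE, averaged 1.499 ± 0.172 FPKM in MD cultured, 0.421 ± 0.327 in IP cultured and 0.757 ± 0.200 in IP acute. Alcam was lower in both cultures than in IP acute (−2.21 and −2.65). Syt1 averaged 57.9 ± 34.5 FPKM in IP acute, 0.495 ± 0.611 in IP cultured and 1.26 ± 1.09 in MD cultured. Il1a averaged 42.0 ± 47.7 FPKM in IP acute, 0.048 ± 0.063 in IP cultured and 0.016 ± 0.014 in MD cultured. Bsg, which encodes basigin, was lower in IP cultured than in IP acute (−1.32). Egfr was lower in MD cultured than in IP cultured (−2.03), where Fgfr1 (0.95) and Il1r1 (1.42) were higher. Of 20 other EF-hand genes, 6 were higher and 5 lower, 5 and 2, and 6 and 6 in the 3 comparisons. The 20 include Calb1, Calb2 and Hpca, the 3 that reached the filter only through their highest group. Capns1, the calpain small subunit, was higher in both cultures than in IP acute (1.201 and 1.63), and the neuronal sensor Vsnl1 was lower in IP cultured (−5.31). Hpca, another neuronal sensor, averaged 37.6 ± 21.7 FPKM in IP acute and 0.306 ± 0.277 in IP cultured, and Calb2 averaged 42.7 ± 19.6 and 0.399 ± 0.121. Ncald (−3.16) and Rcn1 (−0.69) were lower, and Capn2 (0.67) higher, in MD cultured against IP cultured. Calb1 averaged 1.85 ± 0.958 FPKM in IP acute, 0.102 ± 0.027 in IP cultured and 1.09 ± 0.340 in MD cultured. Pvalb was higher (2.70) and Vsnl1 lower (−4.66) in MD cultured than in IP acute. Of the other S100 genes, S100a3 was lower in IP cultured (−1.56) and in MD cultured (−1.47) than in IP acute, at 5.19 ± 1.38 FPKM there. S100a7a passed the filter through MD cultured alone, where it ran from 1.42 to 3.29 FPKM, and reached at most 0.631 FPKM in IP acute and 0.385 in IP cultured, so it has no test here.

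The marker lists differed between the preparations as well. In MD cultured against IP acute, 10 of 10 tested ciliated and ependymal markers were higher, with sums of 399 to 832 FPKM in MD cultured against 55.1 to 60.2 in IP acute and 104 to 323 in IP cultured. Foxj1, which defines ciliated cells, read 179 to 352 FPKM in MD cultured and 8.62 to 17.7 in IP acute. Of 7 oligodendrocyte precursor markers, 7 were lower in MD cultured than in IP cultured, with sums of 243 to 503 FPKM against 1221 to 2908. Of 9 oligodendrocyte markers, 8 were lower in MD cultured than in IP cultured, with sums of 235 to 242 FPKM against 661 to 1411. Against IP acute, 11 of 12 microglial (32.03 to 99.3 FPKM against 150 to 1601), 8 of 9 endothelial (66.98 to 108 against 734 to 1413) and 9 of 10 neuronal markers (202 to 336 against 641 to 2233) were lower in MD cultured. Of these markers, 2 ciliated, 3 oligodendrocyte, 1 microglial, 5 endothelial and 4 neuronal ones passed the filter only through their highest group. Mural and fibroblast sums overlapped, at 1184 to 2232 FPKM in MD cultured, 600.4 to 2763 in IP cultured and 779 to 2275 in IP acute. Of 12 astrocyte markers, 5 were higher and 2 lower in MD cultured than in IP cultured. Against IP acute, 2 were higher and 4 lower. Astrocyte sums were 10770 to 14098 FPKM in MD cultured, 4215 to 7844 in IP cultured and 6846 to 10073 in IP acute. The part of these cells in the S100 differences was not tested.

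Some values rest on reads that could belong elsewhere. Of the 50-base windows of the S100a4 transcript, 56.3% also occur in transcripts of Gm42674, another annotated gene. Of those of S100a11, 41.1% occur in 3 other annotated genes. Reads of these 2 members could therefore have been split or moved by the counting. For the other 7 members no 50-base window was shared with a transcript of another gene.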

How the data were processed

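RNA was sequenced from 43 libraries in 9 groups. Listed tools, per the submitters' processing notes, were STAR 2.5.3a, FastQC 0.11.8, DESeq2 1.14.1 and HOMER 4.10.4. Which of them made which column is not given in the sources used here. The authors deposited FPKM values in all 3 tables. No unit stands in the header of the preparation table, whose layout is that of the FPKM tables, so FPKM was assumed there. That table also holds the authors' log2 fold changes and the authors' adjusted p-values, which the deposited file gives without naming a test.

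Members were matched by symbol. They and the gene lists were chosen with earlier results of these data known. The genes named beyond the members are, for each list and comparison with a called member, the called genes of smallest p (at most 4), and the 3 genes of highest Pearson correlation with each tested member, except that the genes most like S100a6 and the check of the RTT label are not reported here. Trp53 in DS against WT was named after its values were seen. The analysis used limma 3.58.1 in R 4.3.3 (lmFit and eBayes with a trend) on log2(FPKM + 0.5), with group means, 1 fit per table and Benjamini-Hochberg adjustment over all genes tested. The filter kept genes with 1 FPKM or more in a number of libraries equal to the smallest group (4, 6 and 3). The test was tried on simulated data. Because the files hold FPKM and no counts, depth was estimated with transcript lengths from GENCODE, as the depth that made most low values whole reads to within 0.08 of a read. It made 67.0% to 73.9% of them whole, against 7.92% to 14.8% at other depths, and precision is limited most for low members. No 2 libraries of a table shared more than 2.26% of their values.

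In the BMP6 table the labels give the 2 libraries of a culture the same number and the same batch label. Their deviations from the group means correlated (r of 0.41 to 0.78 in the 6 cultures, each above the highest r with another culture). The fit with the culture as a block is therefore printed beside the main one for the tested members. Genes of the lists have the main fit only. Alternatives covered the pseudocount (0.1 and 1), the filter (none, and 5 FPKM), scaling, robust variance, a fold of at least 2, only the groups compared, the replicate block and leaving out libraries. Python 3 with pandas and matplotlib made the summaries and figures. Promoter windows and gene positions are from RefSeq, GRCm38.p6. Protein sequences were not used here.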

Additional observations from a re-analysis of the deposited data

Results flagged for a closer look

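S100b in FXS 17 read 9.14 FPKM, far from the other 5 FXS libraries, whose highest was 3.69 and lowest 2.03 FPKM. It was the only one of 48 gene and group combinations to stand apart in this way, and chance alone would set about 1 in 20 apart. FXS 17 also had the highest sum of ciliated and ependymal markers of the FXS libraries, at 1408 FPKM against 416 to 915 in the others, and the lowest sum of oligodendrocyte precursor markers, at 215 against 393 to 522. The part of those cells was not tested.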

How the results depend on the processing

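For DS against WT the count of called members was 0, and 1 (S100b) under quantile normalization and with only the 2 groups in the fit. For DS against FXS it was 1, and 1 to 2 when 1 library was left out (S100a13 was added without DS 39, adjusted p = 0.0476). For BMP6 against Alone it was 2, 1 with a fold of at least 2, 4 with the replicate block and 1 to 3 when 1 library was left out. In IP cultured against IP acute it was 4, and 2 with the replicate block, where S100a1 and S100a11 were not called. There the deviations of libraries that share a number had r of −0.05 to 0.09. With 3 libraries in each group, these values cannot settle whether the numbers mark pairs. Without DS 32, FXS 31 and WT 33 together, the count of called members was the same in each comparison of the disorder groups. The number of called genes over all, 556 in DS against WT, was 256 without DS 19 and 894 without DS 32. It was 994 without DS 32, FXS 31 and WT 33 together. In DS against FXS it was 347, 223 without DS 21 and 553 without DS 39. In DS against RTT it was 350 and 233 without RTT 44. In BMP6 against Alone it was 1839, and 1041 to 1140 without the BMP6 library of NAAC81, NAAC120 or NAAC122 or the Alone library of NAAC120. Under the alternatives 179 counts of called members were within 1.5 times the main count and 14 were not. No member or named gene changed its direction past the threshold. Depth limits S100g in the first 2 tables, with at most 3 reads per library by the estimate.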

Other observations

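The other S100 genes were near the floor in the disorder table and none passed the filter on low values there, so none was tested. S100z, a family member outside the 9 described, ran from 0.241 to 0.870 FPKM in the 6 FXS libraries (median 0.713) and from 0 to 0.384 in the 6 WT libraries (median 0.046), where 3 libraries were listed at 0. The groups overlapped. S100a8, known from myeloid cells, reached 3.71 FPKM in 1 of the 3 MD cultured libraries, with a group median of 0.384, and ran from 0.327 to 0.979 FPKM in the 3 IP acute libraries.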
